A study of Mus musculus with 14 samples.

Results

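Expression of 10 genes used to recognise hematopoietic stem cells was analysed in stem and progenitor cells of mice with a Jak2V617F-driven myeloproliferative neoplasm. The genes, of 55487 in the count tables, were Hlf, Mecom, Procr, Mllt3, Meis1, Slamf1, Fgd5, Ctnnal1, Tek and Ly6a, chosen by name for their known link to stem cells and matched by gene identifier. The question was how strongly each was enriched in LSK (Lin-Sca1+c-kit+) over LK (Lin-c-kit+) cells, labelled MP(LK), and whether IL-1β changed it. Bone marrow from pI-pC-induced, heterozygous Mx1Cre; Jak2VF/+ mice in a C57BL/6 background had been transplanted into lethally irradiated C57BL/6 mice, which then received PBS or IL-1β by intraperitoneal injection, 3 doses per week for 16 weeks. The control mice therefore carried the mutant allele too, and no wild-type LSK or LK cells were in the series. Mx1Cre is switched on by interferon and acts in blood cells and in other tissues. The IL-1β dose is 0.5 μg in the methods and 0.5 g in the labels. There were 3 libraries with PBS and 2 with IL-1β for each population, and 4 further libraries of mesenchymal stromal cells (MSC) grown from C57BL/6 marrow and treated with PBS (2 libraries) or 5 ng/ml IL-1β (2 libraries) for 72 h. The LK gate as written sets no limit on Sca-1, and nothing in the labels says that libraries of a group came from separate mice, so p-values measure the spread between libraries, which may be technical.

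Hematopoietic stem cells are the rare cells of the marrow that renew themselves and give rise to all blood lineages. They lie within the LSK fraction together with more numerous multipotent progenitors, and LK cells are largely committed myeloid, erythroid and megakaryocytic progenitors. The genes studied here encode nuclear regulators that hold the self-renewing state (Hlf, Mecom, Meis1, Mllt3), surface proteins by which stem cells are sorted or receive signals from the niche (Procr, Slamf1, Tek, Ly6a), and cytoplasmic proteins known as stem cell reporters (Fgd5, Ctnnal1).

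Depth ran from 12172400 to 18544346 read pairs on genes in the PBS and from 4393233 to 8641124 in the IL-1β libraries of LSK and LK cells, without overlap. Levels are given as CPM, TMM-normalized over these 10 libraries. LSK PBS replicate 2 stood apart: 3671 and 3755 of 13839 genes differed by more than 2-fold from PBS replicates 1 and 3, against 1302 between those. The 2 LSK IL-1β libraries also differed from each other in this way at 2685 genes, against 1043 for the 2 LK IL-1β libraries. Called genes had an adjusted p under 0.05 (edgeR quasi-likelihood test, adjusted after Benjamini and Hochberg over all genes tested) and a log2 fold change beyond 0.5 either way. Kit, which encodes c-kit, averaged 535 CPM ± 102 (SD, n = 3) in LSK and 312 CPM ± 26.5 (SD, n = 3) in LK cells with PBS, and 343 CPM ± 67.4 (SD, n = 2) and 331 CPM ± 49.2 (SD, n = 2) with IL-1β. The summed level of 10 mature lymphoid markers was 108 to 129 CPM in LSK and 59.7 to 114 CPM in LK cells with PBS and 204 to 309 CPM and 254 to 296 CPM with IL-1β. Nkg7, of cytotoxic lymphocytes, made up most of these sums, while Cd3d and Cd3g, defining T-cell genes, had no counts in any of the 10 libraries. Their part in the results was not tested. In bulk RNA, fewer cells of a type and less RNA per cell cannot be told apart.

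With PBS, all 10 genes differed between LSK and LK cells: 9 were higher in LSK cells, by 2.46-fold (Slamf1) to 58.1-fold (Ly6a), and Mllt3 was lower. Among all 12737 genes tested, 18.4% were called higher in LSK cells and 12.8% lower. The median log2 fold change was 3.39 for the 10 genes and 0.04 for all genes tested. Ly6a encodes Sca-1, the protein on which LSK cells were sorted, so its difference describes the sort.

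Hlf encodes a PAR bZIP transcription factor that marks stem cells and keeps them quiescent. In LSK cells with PBS it measured 198, 124 and 126 CPM in replicates 1 to 3, and in LK cells 5.67, 7.22 and 11.6 CPM. The lowest LSK library was above the highest LK library, and the fold was 17.8 (log2 fold change 4.16 ± 0.32 SE, adjusted p = 0.000131 by edgeR). Per kilobase of exon, Hlf was the most abundant of these genes in LSK cells after the sorted gene Ly6a, at 22.3 CPM per kb against 28.3.

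Mecom encodes the zinc-finger regulator EVI1 and its longer form MDS1-EVI1, which stem cells need to persist. Its levels were 47.0, 43.0 and 42.0 CPM in the LSK and 1.36, 1.96 and 3.66 CPM in the LK libraries with PBS. The LSK libraries lay close together, and the fold was 18.4 (log2 fold change 4.20 ± 0.36 SE, adjusted p = 0.000177 by edgeR). Meis1, a TALE homeobox partner of HOX proteins, measured 140, 69.0 and 149 CPM in LSK and 15.7, 18.1 and 23.1 CPM in LK cells. LSK replicate 2 was the low one, yet lay above every LK library, and the fold was 6.13 (log2 fold change 2.62 ± 0.31 SE, adjusted p = 0.000697 by edgeR).

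Mllt3 encodes AF9, a YEATS-domain reader of acylated histones in the complexes that hold DOT1L and the elongation machinery. It ran the other way, at 25.6, 19.5 and 22.2 CPM in LSK and 55.3, 57.7 and 47.6 CPM in LK cells with PBS. Every LK library was above every LSK library, and the level in LSK cells was 2.44-fold lower (log2 fold change -1.29 ± 0.19 SE, adjusted p = 0.00161 by edgeR). It was the most abundant of the 10 genes in LK cells per kilobase, at 4.46 CPM per kb, with Meis1 next at 1.80.

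The promoters of Hlf, Mecom, Procr and Mllt3 are shown because the results below turn on these genes. Each run holds 250 bases before to 50 after a RefSeq start (GRCm38.p6), read 5′ to 3′ on the gene's strand, and capitals mark matches to the motifs named below. Mecom has 2 starts in the table, of which the one at chr3:30509710-30510009 lies upstream in the gene, and the upstream of the 2 starts of Mllt3 is given. The coordinates are chr11:90390868-90391167 (minus strand) for Hlf, chr3:30509710-30510009 and chr3:30013155-30013454 (minus strand) for Mecom, chr2:155750967-155751266 (plus strand) for Procr and chr4:88033358-88033657 (minus strand) for Mllt3.
Hlf: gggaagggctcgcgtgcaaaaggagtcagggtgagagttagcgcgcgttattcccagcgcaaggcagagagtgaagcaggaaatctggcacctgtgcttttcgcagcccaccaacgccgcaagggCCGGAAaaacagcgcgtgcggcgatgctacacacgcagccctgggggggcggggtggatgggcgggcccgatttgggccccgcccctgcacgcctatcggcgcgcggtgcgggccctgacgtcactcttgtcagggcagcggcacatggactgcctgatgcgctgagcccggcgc
Mecom, upstream start: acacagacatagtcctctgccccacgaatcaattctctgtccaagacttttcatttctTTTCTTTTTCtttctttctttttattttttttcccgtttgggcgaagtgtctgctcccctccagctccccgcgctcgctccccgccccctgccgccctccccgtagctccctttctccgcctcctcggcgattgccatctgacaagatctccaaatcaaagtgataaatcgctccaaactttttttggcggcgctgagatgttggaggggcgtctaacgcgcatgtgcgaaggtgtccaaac
Mecom, downstream start: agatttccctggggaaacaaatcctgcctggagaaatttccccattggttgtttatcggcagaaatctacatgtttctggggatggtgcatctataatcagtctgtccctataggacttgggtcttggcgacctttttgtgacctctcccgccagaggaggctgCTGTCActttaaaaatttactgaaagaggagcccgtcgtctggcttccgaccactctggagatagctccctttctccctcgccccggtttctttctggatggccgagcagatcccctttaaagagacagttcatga
Procr: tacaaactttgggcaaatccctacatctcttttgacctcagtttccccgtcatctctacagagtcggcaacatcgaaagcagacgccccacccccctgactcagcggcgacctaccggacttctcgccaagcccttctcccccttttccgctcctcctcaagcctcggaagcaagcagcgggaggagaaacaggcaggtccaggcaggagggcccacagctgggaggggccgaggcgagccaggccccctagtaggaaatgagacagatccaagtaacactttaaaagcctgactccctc
Mllt3: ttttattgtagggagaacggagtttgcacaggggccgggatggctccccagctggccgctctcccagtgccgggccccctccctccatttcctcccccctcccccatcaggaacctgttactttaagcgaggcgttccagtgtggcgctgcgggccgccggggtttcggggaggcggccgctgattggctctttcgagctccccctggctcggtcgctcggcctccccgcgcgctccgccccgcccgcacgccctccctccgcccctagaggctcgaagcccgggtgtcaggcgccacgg

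Of the 10 genes, 9 had a promoter in the table, with 11 starts in all, and Ly6a had no entry. The 300-base windows at Fgd5, the upstream start of Mllt3, Ctnnal1 and Hlf were rich in G and C (71.3%, 70.3%, 70.3% and 67.3%) and held 37, 29, 24 and 30 CG dinucleotides. Those of Tek and Slamf1 held 3 and 4, against a median of 7 over all 32841 promoters of the table, whose median content of G and C was 52.7%. On both strands, the ETS letters CCGGAA were found at Hlf and Meis1 (14.9% of all promoters hold them), and the MEIS letters TGACAG at the downstream starts of Mecom and Mllt3 and at Tek and Fgd5 (19.2%). The GATA letters AGATAA were found at Tek alone (11.2%), and the IRF letters, GAAA repeated after any 2 bases, at the upstream start of Mecom alone (3.44%). None of the 11 windows held the PAR bZIP letters TTACNTAA (2.32%), the STAT letters TTCNNNGAA (8.3%) or the NF-kB letters, GGGA and TTTCC around any base (0.411%). Each promoter shown held at most 1 match, so none overlapped there, and a match describes letters and not a bound site.

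Among the surface proteins, Procr encodes the endothelial protein C receptor (EPCR, CD201), one of the most selective markers of long-term stem cells. It measured 12.1, 5.73 and 12.9 CPM in LSK and 0.32, 0.41 and 0.72 CPM in LK cells with PBS. LSK replicate 2 was again the low one, and the fold was 20.4 (log2 fold change 4.35 ± 0.54 SE, adjusted p = 0.000863 by edgeR). Tek, the angiopoietin receptor Tie2, measured 28.5, 27.4 and 31.5 CPM in LSK and 4.87, 2.01 and 8.11 CPM in LK cells. The populations did not overlap, and the fold was 5.72 (log2 fold change 2.51 ± 0.45 SE, adjusted p = 0.00381 by edgeR). Slamf1 encodes the SLAM receptor CD150, which in wild-type marrow separates stem cells from most multipotent progenitors. It was the least different, at 9.77, 8.68 and 11.8 CPM in LSK and 2.95, 4.12 and 4.88 CPM in LK cells (2.46-fold, log2 fold change 1.30 ± 0.34 SE, adjusted p = 0.0208 by edgeR). Its call was lost when LSK replicate 1 or 3 or LK replicate 1 or 2 was left out (adjusted p 0.0600, 0.0766, 0.108 and 0.0839 by edgeR), at log2 fold changes of 1.12 to 1.29.

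Ly6a measured 28.5, 41.7 and 32.2 CPM in LSK and 0.72, 0.26 and 0.79 CPM in LK cells with PBS, and it belongs to a family of similar genes on chromosome 15, so read pairs shared with a relative may be missing. Fgd5 encodes a guanine nucleotide exchange factor that is used as a stem cell reporter. It had 109, 263 and 128 read pairs in LSK libraries (8.26, 20.4 and 7.45 CPM) and 6, 2 and 5 in LK libraries (0.48, 0.10 and 0.36 CPM). LSK replicate 2 was here the high one, and the fold of 38.3 (log2 fold change 5.26 ± 0.69 SE, adjusted p = 0.00108 by edgeR) was the largest after Ly6a. Ctnnal1, which encodes the catenin-like protein alpha-catulin, measured 14.4, 17.7 and 13.9 CPM in LSK and 2.71, 4.33 and 5.53 CPM in LK cells (3.56-fold, log2 fold change 1.83 ± 0.34 SE, adjusted p = 0.00482 by edgeR). With the exception of Slamf1, all these calls held with each PBS library left out in turn.

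**Figure D1:**
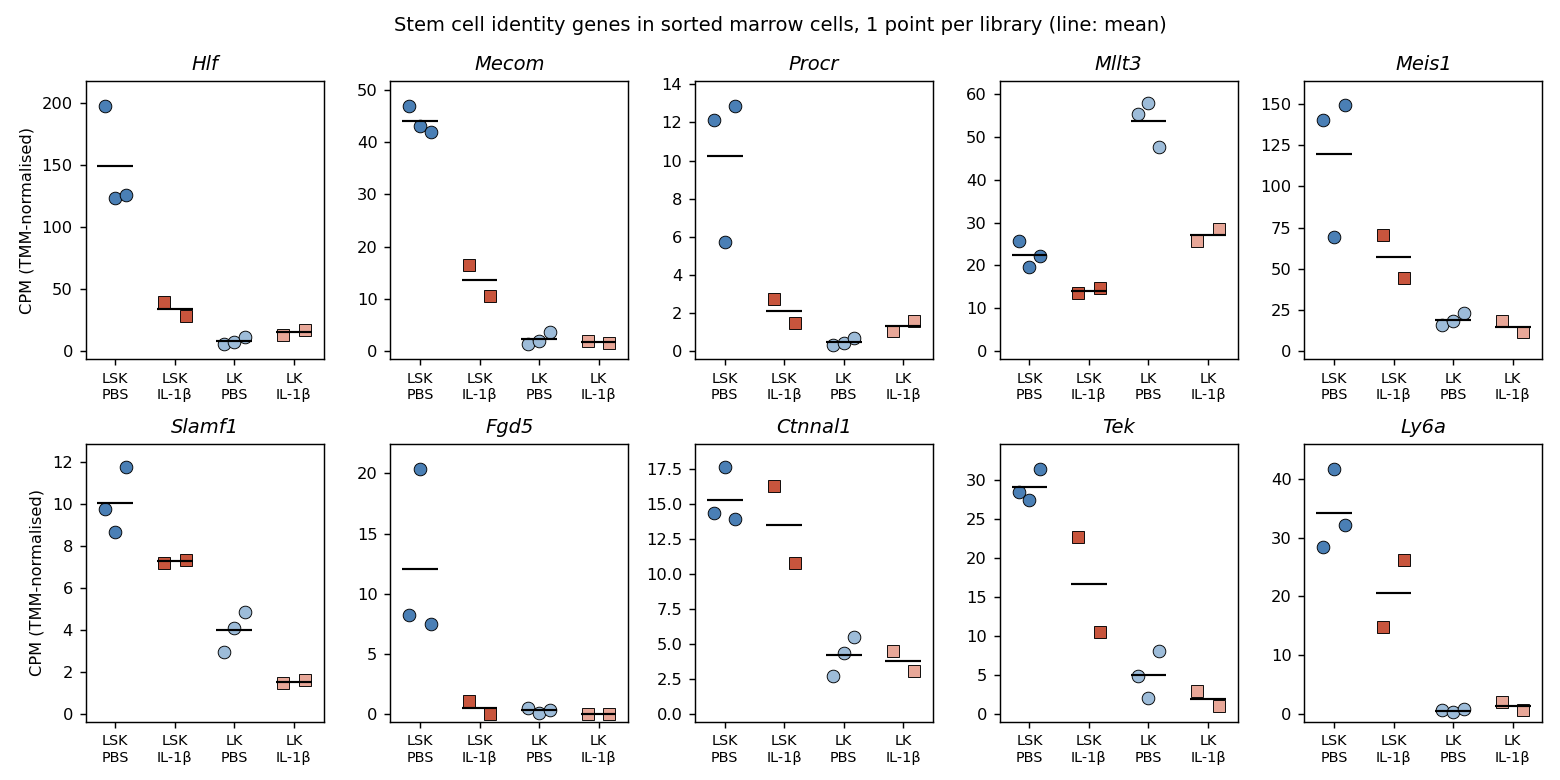
CPM (vertical axes, linear, one scale per gene) of the 10 genes in each LSK and LK library, in the groups PBS (circles, 3 libraries) and IL-1β (squares, 2 libraries), with a line at the group mean. For 9 genes the LSK PBS libraries are all above the LK PBS libraries, Mllt3 is the reverse, and for 8 genes both LSK IL-1β libraries are below all LSK PBS libraries.

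With IL-1β, 9 of the 10 genes could be compared between LSK and LK cells and 6 were called higher in LSK cells, by 3.60-fold (Ctnnal1) to 14.7-fold (Ly6a). None was called lower, and of all 11743 genes tested 4.18% were called higher and 4.14% lower. The median log2 fold change was 1.95 for the 9 genes and -0.02 for all genes tested. Mecom (2.91 ± 0.43 SE, adjusted p = 0.0146), Meis1 (1.95 ± 0.33 SE, adjusted p = 0.0211), Slamf1 (2.24 ± 0.45 SE, adjusted p = 0.0315), Ctnnal1 (1.85 ± 0.40 SE, adjusted p = 0.0388), Tek (3.08 ± 0.60 SE, adjusted p = 0.0288) and Ly6a (3.88 ± 0.55 SE, adjusted p = 0.0139) made up the 6 by edgeR on the log2 scale. The calls of Slamf1 and Ctnnal1 were lost without either LK IL-1β library (adjusted p 0.243 and 0.212 for Slamf1, 0.0735 and 0.277 for Ctnnal1, by edgeR with replicate 1 and then 2 left out).

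With PBS Hlf and Procr had been 17.8-fold and 20.4-fold higher in LSK cells, and neither was called with IL-1β. Hlf measured 39.8 and 28.4 CPM in LSK and 13.4 and 17.2 CPM in LK cells. Its libraries still did not overlap, but the fold was 2.25 and missed the call (log2 fold change 1.17 ± 0.28 SE, adjusted p = 0.05004 by edgeR, just above the threshold). Procr measured 2.72 and 1.47 CPM in LSK and 1.06 and 1.61 CPM in LK cells. The populations overlapped (log2 fold change 0.72 ± 0.63 SE, adjusted p = 0.500 by edgeR), on 23 and 6 read pairs in the LSK and 8 and 10 in the LK libraries. Mllt3 was lower in LSK cells at 13.6 and 14.7 CPM against 25.8 and 28.5 CPM, without a call (log2 fold change -0.94 ± 0.25 SE, adjusted p = 0.0592 by edgeR). Both Hlf and Mllt3 were called when LSK IL-1β replicate 1 or 2 was left out, in fits that took the spread from the 2 LK libraries alone and called 34% and 33.5% of all genes. Without LK IL-1β replicate 1 or 2, adjusted p was 0.391 and 0.169 for Hlf and 0.371 and 0.581 for Mllt3 by edgeR.

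With the replicate number that LSK and LK libraries share as a block, 7 genes were called higher in LSK cells with IL-1β, Hlf being the seventh (adjusted p = 0.00432), and Mllt3 was called lower (adjusted p = 0.0273, both by edgeR). Under the block 8.63% of all genes tested were called higher and 8.89% lower. For Hlf the log2 fold change was 1.16 ± 0.30 SE with the block and 1.17 ± 0.28 SE without it. The lower adjusted p thus did not come with a smaller SE. Fgd5 could not be compared with IL-1β. It had 9 and 0 read pairs in LSK cells and none in either LK library, where a count of 0 allows up to 0.399 and 0.483 CPM.

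**Figure D2:**
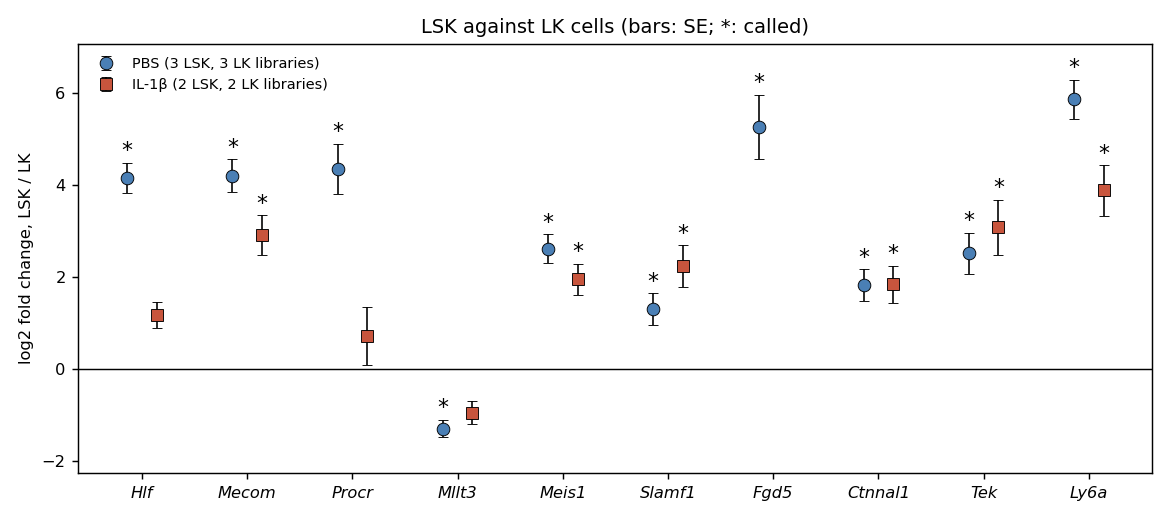
Log2 fold change of LSK against LK cells (vertical axis) for the 10 genes, with PBS (circles, 3 libraries per population) and with IL-1β (squares, 2 per population). Bars are standard errors and asterisks mark called genes. The 10 PBS values run from -1.29 to 5.86, and with IL-1β Hlf and Procr are at 1.17 and 0.72.

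In LSK cells all 10 genes had lower fitted levels with IL-1β than with PBS, and Hlf alone was called. Of 13132 genes tested, 0.312% were called lower and 0.32% higher. For 8 of the 10 genes both IL-1β libraries lay below all 3 PBS libraries, as 22.8% of all genes tested did, while 16.7% were higher without overlap. The median log2 fold change was -0.88 for the 10 genes and -0.06 for all genes tested.

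Hlf fell 4.21-fold in LSK cells, from 149 CPM ± 42.4 (SD, n = 3) to 34.1 CPM ± 8.01 (SD, n = 2), with a log2 fold change of -2.08 ± 0.31 SE (adjusted p = 0.0225 by edgeR). The call was lost without IL-1β replicate 1 (log2 fold change -2.36, adjusted p = 0.138) or 2 (-1.83, adjusted p = 0.280, both by edgeR). Mecom went from 44.0 CPM ± 2.63 (SD, n = 3) to 16.6 and 10.5 CPM, 3.12-fold lower in the fit and just outside the threshold (log2 fold change -1.64 ± 0.32 SE, adjusted p = 0.0596 by edgeR). Meis1 was at 70.4 and 44.4 CPM with IL-1β, which overlapped the low PBS replicate 2 (log2 fold change -1.01 ± 0.37 SE, adjusted p = 0.201 by edgeR). Mllt3 was at 13.6 and 14.7 CPM, below the 3 PBS libraries (log2 fold change -0.63 ± 0.33 SE, adjusted p = 0.333 by edgeR).

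Of the surface proteins, Procr was at 2.72 and 1.47 CPM with IL-1β, below the lowest PBS library (log2 fold change -2.20 ± 0.63 SE, adjusted p = 0.131 by edgeR). Tek (22.7 and 10.5 CPM, log2 fold change -0.75 ± 0.38 SE), Ly6a (14.8 and 26.2 CPM, -0.72 ± 0.36 SE) and Slamf1 (7.22 and 7.35 CPM, -0.43 ± 0.44 SE) had smaller differences, with adjusted p of 0.319, 0.310 and 0.629 by edgeR. The IL-1β libraries of these 3 genes were nonetheless all below the PBS libraries. Without IL-1β replicate 1 and then 2, the log2 fold change was -1.45 and -0.29 for Tek and -0.36 and -1.13 for Ly6a. Ly6a is also known to be induced by interferons, and Sca-1 protein sets the LSK gate.

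Fgd5 had the largest fitted difference in LSK cells (log2 fold change -4.18 ± 0.97 SE, adjusted p = 0.0841 by edgeR). The count of 0 in IL-1β replicate 2 allows up to 0.735 CPM, below the 7.45 CPM of the lowest PBS library. Without IL-1β replicate 2 the log2 fold change was -3.42, and without replicate 1 the remaining library is at 0 and sets no fold. Ctnnal1 differed least, at 16.3 and 10.8 CPM against 13.9 to 17.7 CPM with PBS (log2 fold change -0.13 ± 0.38 SE, adjusted p = 0.883 by edgeR). The number of genes called moved with the tool: DESeq2's Wald test, which the study used, called Hlf, Mecom, Procr and Fgd5 lower (adjusted p = 1.43e-07, 0.000501, 0.0218 and 0.000225), against 3.72% of all genes tested. Without the divergent PBS replicate 2, edgeR called Hlf, Mecom and Procr (adjusted p = 0.0419 for Mecom and 0.0420 for Procr) and 1.58% of all genes lower. Without PBS replicate 3 it called Hlf and Fgd5 (adjusted p = 0.0211 for Fgd5) and 0.695% of all genes lower.

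Granulocytic genes moved with the treatment in LSK cells, as did depth. The summed level of 15 granulocytic genes was 2221 to 3241 CPM in the PBS and 10243 to 12299 CPM in the IL-1β LSK libraries, and Mpo, which encodes myeloperoxidase, made up most of it at 1980 CPM ± 269 (SD, n = 3) and 7232 CPM ± 82.0 (SD, n = 2). Of the 13 of these genes tested, 5 were called higher with IL-1β in LSK cells, against 0.32% of all genes tested. Among the 5 were Lcn2 (log2 fold change 6.71) and Elane (3.32). Their part in the lower levels of the stem cell genes was not tested. Of 8 genes of multipotent progenitors, Flt3 and Dntt were called lower in LSK cells (log2 fold change -2.42 and -5.36, adjusted p = 0.0207 and 0.0161 by edgeR), against 0.312% of all genes tested. The median log2 fold change of the 8 was -1.05, with 7 below 0, against -0.88 for the 10 stem cell genes. With PBS, 7 of these 8 were called higher in LSK than in LK cells, against 18.4% of all genes tested, at a median log2 fold change of 1.85. Lower levels with IL-1β and enrichment in LSK cells were thus not particular to the 10 genes. With all libraries thinned to one depth, Hlf was likewise the one gene of the 10 called, and 63 of 11609 genes tested were called lower. Depth went with treatment in these libraries, and its part in the result was not tested.

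In LK cells the response was mixed, and Mllt3 alone was called. It fell 1.97-fold, from 55.3, 57.7 and 47.6 CPM with PBS to 25.8 and 28.5 CPM with IL-1β (log2 fold change -0.98 ± 0.14 SE, adjusted p = 0.00615 by edgeR). The call was lost without either IL-1β library (adjusted p = 0.128 without replicate 1 and 0.0536 without replicate 2, by edgeR). Of 12835 genes tested, 2.57% were called lower and 6.77% higher. The median log2 fold change was -0.35 for the 9 genes tested and -0.03 for all genes.

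In CPM, Hlf and Procr were higher in both IL-1β LK libraries than in any PBS library, as 23.4% of all genes tested were. Procr rested on 4, 8 and 10 read pairs in the LK PBS libraries and on 8 and 10 in the shallower IL-1β libraries. Hlf went from 8.15 CPM ± 3.05 (SD, n = 3) to 13.4 and 17.2 CPM (log2 fold change 0.91 ± 0.32 SE, adjusted p = 0.120) and Procr from 0.483 CPM ± 0.209 (SD, n = 3) to 1.06 and 1.61 CPM (1.44 ± 0.70 SE, adjusted p = 0.246, both by edgeR). Neither was called, and Hlf was called once the LK PBS replicate nearest to the IL-1β libraries, replicate 3, was left out (log2 fold change 1.24, adjusted p = 0.00231 by edgeR), a fit that called 12.3% of all genes higher. Slamf1 was lower without overlap, at 1.46 and 1.61 CPM (log2 fold change -1.37 ± 0.44 SE, adjusted p = 0.0859 by edgeR). With Mllt3 it made up 2 of the 9 genes tested with lower IL-1β libraries, against 22.4% of all genes tested, and Fgd5 was too low to be tested. Mecom, Meis1, Ctnnal1, Tek and Ly6a overlapped between treatments, with adjusted p from 0.294 to 0.868 by edgeR. In LK cells with IL-1β the calprotectin genes S100a8 and S100a9 averaged 120 CPM ± 48.0 and 83.7 CPM ± 49.9 (SD, n = 2), from 2.46 and 1.46 CPM with PBS, and Ly6g had no counts. In these LK libraries the granulocytic sum was 4636 to 9994 CPM with PBS and 19242 to 22648 CPM with IL-1β, and the sum of 12 erythroid genes was 6274 to 8234 CPM and 3753 to 4313 CPM. Their part in the result was not tested.

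**Figure D3:**
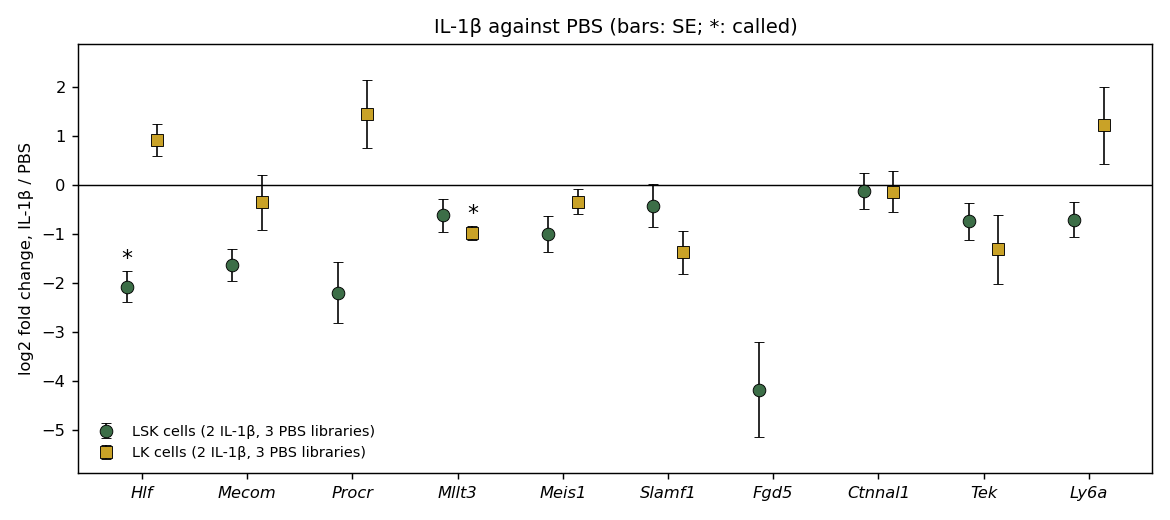
Log2 fold change of IL-1β against PBS (vertical axis) for the 10 genes in LSK cells (circles) and LK cells (squares), each from 2 IL-1β and 3 PBS libraries. Bars are standard errors and asterisks mark called genes. All LSK values are below 0, from -4.18 to -0.13, while Hlf, Procr and Ly6a are above 0 in LK cells. Fgd5 was not tested in LK cells.

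Hlf and Procr thus had opposite fitted signs in the populations. The difference of the responses, tested as an interaction over all 10 libraries, was -3.03 ± 0.46 SE on the log2 scale for Hlf (adjusted p = 0.0649) and -3.68 ± 0.85 SE for Procr (adjusted p = 0.138, both by edgeR). None of the 10 genes passed this test, in which 0.0289% of 13839 genes were called. With the replicate number as a block, Hlf passed (log2 difference -3.04, adjusted p = 0.0311 by edgeR), as 0.173% of all genes did. Leaving out LSK PBS replicate 2 brought both Hlf and Procr past the threshold (adjusted p = 0.0335 and 0.0362 by edgeR), as it did 2.47% of all genes. Hlf passed also without LSK IL-1β replicate 1 or LK PBS replicate 3 (adjusted p = 0.0366 and 0.0499 by edgeR), where 1.33% and 0.0145% of all genes passed. With any other library left out, none of the 10 genes passed. These were LSK PBS replicates 1 and 3, LK PBS replicates 1 and 2, LSK IL-1β replicate 2 and both LK IL-1β libraries. Over all fits that left a library out, the log2 difference for Hlf ran from -3.35 to -2.68. For Ly6a the difference was -1.99 ± 0.73 SE and for Mecom -1.32 ± 0.57 SE (adjusted p = 0.269 and 0.328 by edgeR), and for Mllt3, Meis1, Slamf1, Ctnnal1 and Tek adjusted p ran from 0.480 to 0.993. The difference for Fgd5 (0.62 ± 1.11 SE, adjusted p = 0.840 by edgeR) rests on LK libraries at 0 with IL-1β, and its sign changed with the tool.

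Stem cell genes outside the 10 gave a wider view. Of 35 further genes known from stem cells, 28 were tested between LSK and LK cells with PBS. Of these, 25 were called higher in LSK cells and 2 lower, against 18.4% and 12.8% of all genes tested. Their median log2 fold change was 2.53 against 0.04 for all genes tested. Nkx2-3, a homeobox gene, averaged 16.3 CPM ± 6.73 (SD, n = 3) in LSK and 0.0479 CPM ± 0.0829 (SD, n = 3) in LK cells, and Esam, an adhesion molecule, 23.9 CPM ± 4.12 (SD, n = 3) and 0.750 CPM ± 0.340 (SD, n = 3). Robo4, the roundabout receptor by which stem cells hold to the marrow, averaged 16.9 CPM ± 6.66 (SD, n = 3) and 0.462 CPM ± 0.350 (SD, n = 3). With IL-1β 13 of 24 were called higher and 1 lower, against 4.18% and 4.14% of all genes tested. Esam, Nkx2-3 and Vldlr had the largest differences.

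For 30 further genes tested in LSK cells, the median log2 fold change with IL-1β was -0.92 against -0.06 for all genes tested. Of the 30, 4 were called lower and none higher, against 0.312% and 0.32% of all genes tested. They included Robo4 (log2 fold change -5.06 ± 0.67 SE, adjusted p = 0.0161), the GTPase gene Gimap6 (-2.51 ± 0.33 SE, adjusted p = 0.0161) and the MYC relative Mycn (-1.95 ± 0.28 SE, adjusted p = 0.0207), all by edgeR. Robo4 was left at 0.482 CPM ± 0.0119 (SD, n = 2) from 16.9 CPM with PBS, and 25 of the 30 fitted values were below 0. The floor of 3 counts stands at 0.735 CPM in LSK IL-1β replicate 2. The Robo4 level, its SD and its fold thus rest on few read pairs with IL-1β. In LK cells 4 of 24 were called lower and 1 higher, against 2.57% and 6.77% of all genes tested. Vwf (log2 fold change -1.58 ± 0.28 SE), Tal1 (-0.70 ± 0.12 SE) and Cd82 (-0.65 ± 0.16 SE) fell and the interferon-inducible gene Ifitm1 rose (2.64 ± 0.34 SE), with adjusted p of 0.0119, 0.0116, 0.0388 and 0.0109 by edgeR.

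Paralogs and partners of the 10 genes were followed as a separate list of 29. With PBS 14 of 26 tested were called higher in LSK cells and 3 lower, against 18.4% and 12.8% of all genes tested. The highest were Prdm16, a relative of Mecom (log2 fold change 4.90 ± 0.61 SE), Cd244a, a SLAM receptor like Slamf1 (3.03 ± 0.26 SE), and Tie1, the sister receptor of Tek (3.00 ± 0.37 SE), with adjusted p of 0.000827, 0.000190 and 0.000801 by edgeR. Of the relatives of Fgd5, Fgd1, Fgd2, Fgd3 and Fgd4 were called higher in LSK cells like Fgd5 itself (log2 fold changes of 2.34, 1.22, 1.60 and 1.27), and Fgd6 was called lower (-3.54 ± 0.46 SE, adjusted p = 0.00103 by edgeR). With IL-1β 5 of 26 were called higher in LSK cells, Tie1 among them, and 3 lower, against 4.18% and 4.14% of all genes tested. None of 27 was called in LSK cells on IL-1β by edgeR, with a median log2 fold change of -0.60. In LK cells 5 of 26 were called higher, against 6.77% of all genes tested. These included Cd244a (log2 fold change 1.26 ± 0.27 SE), Nfil3, a bZIP repressor that competes with Hlf for its sites (1.22 ± 0.29 SE), Hoxa9, a partner of Meis1 (1.00 ± 0.20 SE), and Aff1, which encodes a partner of AF9 (0.89 ± 0.12 SE), with adjusted p of 0.0230, 0.0337, 0.0170 and 0.00481 by edgeR.

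Across the 10 LSK and LK libraries, the genes whose log2 CPM was most like the mean log2 CPM of the members other than Ly6a were Myof (Pearson r = 0.994), Mtss1l (0.993), Fmnl1 (0.991), Csgalnact1 (0.991) and Adgrg1 (0.990), of 13839 genes. The libraries fall into groups that differ in population, treatment and depth, and the r describes this shared pattern. Myof was at 21.0 CPM in LSK cells with PBS and 3.36 CPM with IL-1β, and at 1.01 and 0.427 CPM in LK cells. Adgrg1, the adhesion receptor GPR56, stood highest of the 5 at 1752, 875, 469 and 358 CPM in the same order. Among the members themselves, r with this mean, of which each member other than Ly6a is a part, was highest for Mecom (0.986) and lowest for Mllt3 (-0.53).

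Some of the 10 genes are not specific to blood stem cells. In cultured MSC, which were normalized separately and are described without a test, Ly6a measured 78.5 and 78.9 CPM with PBS and 94.5 and 95.2 CPM with IL-1β, and Procr 17.0 and 28.6 CPM with PBS and 31.3 and 30.4 CPM with IL-1β. Both are also surface markers of mesenchymal cells. Hlf, Mecom, Slamf1, Fgd5 and Tek were each at 14 or fewer read pairs in every MSC library. Tek is best known from endothelium, and in LSK and LK cells the endothelial genes Cldn5, Sox17 and Mmrn2 had no counts in any library. Others had counts. With PBS, Tie1, which stem cells also express, averaged 83.5 CPM in LSK and 10.2 CPM in LK cells, and Egfl7 63.3 and 38.6 CPM. Kdr averaged 2.22 and 0.544 CPM and Plvap 2.63 and 15.8 CPM. In LK cells Plvap was called lower with IL-1β, at 4.56 CPM (log2 fold change -1.78, adjusted p = 0.00414 by edgeR). The summed level of the 10 endothelial markers was 130 to 169 CPM in LSK and 59.7 to 76.0 CPM in LK cells with PBS and 91.6 to 97.5 CPM and 41.9 to 42.1 CPM with IL-1β. The part of endothelial cells in the Tek level was not tested.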

How the data were processed

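RNA-seq libraries (rRNA-depleted, NEBNext) of sorted LSK and LK cells (10) and of cultured MSC (4) were analysed. The deposited values are counts of read pairs per gene. Per the file headers and the submitters' processing notes, the authors trimmed reads with fastp 0.20.0, aligned them to GRCm38 with HISAT2 2.0.1 and counted pairs with featureCounts 2.0.2 on Ensembl release 100 genes, reverse-stranded, without normalization. The methods name GenomicAlignments. Pairs that map to several places are not counted by default, which lowers members of gene families. Identifiers were paired with symbols from GENCODE M21 on the same build (55141 of 55487). The members and lists were chosen with earlier results of these data known.

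Counts were tested with edgeR 4.0.16 in R 4.3.3 (filterByExpr, TMM, robust glmQLFit, glmQLFTest) within the groups compared, and responses as an interaction over the 10 libraries. The study's thresholds for a call were kept (adjusted p under 0.05, log2 fold change beyond 0.5 either way). Standard errors are the log2 fold change divided by the square root of F. The main tests were not paired, and the labels' replicate numbers entered only as the replicate block among the alternatives. Deviations of same-numbered LSK and LK libraries from their group means correlated at 0.211, 0.128 and 0.472 with PBS, and at 0.100 with IL-1β. Differently numbered PBS pairs ran from -0.381 to 0.162, and the 2 IL-1β pairs give a single value. LSK PBS replicate 2 correlated more with LK PBS replicate 1 (0.162) than with LK PBS replicate 2 (0.128). These values cannot show that libraries of one number share a mouse. PBS and IL-1β mice differed. Alternatives were DESeq2 1.42.0, limma-voom (limma 3.58.1), other size factors and filters, no fold threshold, thinning to one depth, a joint fit, the replicate block and each library left out in turn. All 10 members are named, and from other lists the called genes with the largest changes, at most 4 per list and comparison. Mpo, Nkg7, S100a8, S100a9, Kit, Fgd1 to Fgd4, Egfl7, Kdr, Plvap and the markers without counts were named after their values were seen. Some genes of these lists are not reported here. Likeness was ranked by Pearson's r on log2 CPM. The floor was 3 counts per library, and floors cover counting error only, since PCR copies are not independent. The tests were checked on simulated data. The further IL-1β-treated MSC library that a file header names was not analysed here. Figures were drawn with matplotlib 3.10.9.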

Additional observations from a re-analysis of the deposited data

Results flagged for a closer look

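Hlf and Procr were flagged because in CPM every IL-1β library was below every PBS library in LSK cells and above every PBS library in LK cells. Of all genes tested, 22.8% were lower in this way in LSK cells and 23.4% higher in LK cells, and the share with both was not counted. The p-values below come from the same libraries as the flag and are not independent of it. The log2 response in LSK cells minus that in LK cells was -3.03 for Hlf and -3.68 for Procr. By edgeR's interaction test over all 10 libraries the adjusted p were 0.0649 and 0.138. DESeq2's Wald test gave adjusted p of 1.18e-06 and 0.0116 for the same differences and called 332 of 13839 genes, against 4 by edgeR. By limma-voom 1 gene was called, and it was none of the 10.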

How the results depend on the processing

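Counts of the 10 genes called for IL-1β against PBS moved with the setting. In LSK cells, where 1 gene was called, DESeq2 called 4, limma-voom 0, no filter on low counts 5, a joint fit 4 and the replicate block 3, and leaving out one library 0 to 3. Over all genes the same settings called 488, 2, 514, 681, 388 and 0 to 200 genes lower, against 41. In LK cells, with 1 called, no filter, thinning and the replicate block each called 2, and leaving out one library 0 to 2, while 1844, 1220, 2331 and 66 to 2409 of all genes were called, against 1199. For the difference of the responses, with 0 called, DESeq2 and no filter called 2 and the replicate block 1, and leaving out one library gave 0 to 2, while 332, 398 and 24 of all genes passed in the first 3 of these and 0 to 336 with one library left out, against 4. Between LSK and LK cells the count was 9 or 10 with PBS and 4 to 8 with IL-1β under all settings. PBS and IL-1β mice shared only a replicate number, on which the blocked counts within a population rest.

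Of single fold changes, 22 of 755 alternative values turned sign, all of genes not called. In LK cells the replicate block gave 0.12 for Ctnnal1 and 0.13 for Mecom, and leaving out one library gave -0.47 to 0.11 and -0.62 to 0.11. In LSK cells Ctnnal1 ran from -0.49 to 0.16. For the difference of the responses, Ctnnal1 gave 0.040 with DESeq2, 0.036 with its size factors, 0.056 with upper-quartile factors and 0.091 with no filter, and -0.33 to 0.33 with one library left out, and Tek ran from -0.12 to 1.60. Fgd5, at 0 in LK cells with IL-1β and at 0.62 above, gave -0.73 with DESeq2, -0.81 thinned and -2.60 with limma-voom, and -5.18 to 1.47 with one library left out. The cause was not tested.

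Over all genes and settings, calls ran from 2145 to 4965 for LSK against LK cells with PBS, 358 to 4170 with IL-1β, 3 to 1228 for IL-1β in LSK cells, 66 to 2409 in LK cells and 0 to 398 for the difference of the responses. The 2 IL-1β libraries per population limit every comparison with IL-1β.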
